A study of Mus musculus with 11 samples.

Results

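The Ly6 family is described here through 9 of the 55536 mouse genes counted in the files: Ly6a, Ly6c1, Ly6c2, Ly6d, Ly6e, Ly6k, Ly6g6c, Ly6g5b and Ly6g6d. They were chosen by symbol, without regard to their level, and 8 of the 9 were among the 20307 genes that passed a low-count filter and were tested (Ly6k did not pass). The RNA came from dorsal epidermal cells of male CD4Cre R26-tdT mice on a C57Bl6/N background, in which Cre driven by the CD4 promoter leaves the red reporter tdTomato (tdT) in cells that have expressed it and in their descendants. All cells lay in a CD49f+CD34+ gate and were sorted by the surface protein Sca-1 and by tdT into Sca-1neg tdT+ (3 libraries), Sca-1neg tdT- (3), Sca-1+ tdT+ (3) and Sca-1+ tdT- (2). Each library pooled 2 mice, aged 29 weeks for replicate 1 of each group and 32 weeks for the others, so p values measure the spread between such pools.

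Ly6 proteins are small surface proteins whose fold, the LU domain, is held together by disulfide bonds between conserved cysteines, and most are tethered to the membrane by a glycosylphosphatidylinositol (GPI) lipid anchor. Ly6a encodes Sca-1 itself, a marker of blood-forming stem cells that in skin is found on basal keratinocytes between follicles and in the upper hair follicle rather than on the CD34-bearing stem cells of the bulge. Ly6c1 is abundant in many endothelial cells and Ly6c2 in inflammatory monocytes, Ly6d is a surface protein of stratified epithelia also used to stage early B cells, and Ly6e is an interferon-inducible member found in many tissues.

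On mm10, 6 members lie on chromosome 15. Ly6d spans 74762056 to 74763620, Ly6k 74796874 to 74799986, Ly6e 74955051 to 74959905, Ly6a 74994877 to 74998031, Ly6c1 75044018 to 75048830 and Ly6c2 75108158 to 75111970. The other 3 lie on chromosome 17, in the class III region of the major histocompatibility complex: Ly6g6c at 35065388 to 35070050, Ly6g6d at 35071443 to 35078065 and Ly6g5b at 35113948 to 35115428. The first 240 coding bases of 4 members (GENCODE M21 transcripts) are shown because they separate the near-copies from a member with its own sequence. Capitals mark in-frame cysteine codons (TGT or TGC).
Ly6a: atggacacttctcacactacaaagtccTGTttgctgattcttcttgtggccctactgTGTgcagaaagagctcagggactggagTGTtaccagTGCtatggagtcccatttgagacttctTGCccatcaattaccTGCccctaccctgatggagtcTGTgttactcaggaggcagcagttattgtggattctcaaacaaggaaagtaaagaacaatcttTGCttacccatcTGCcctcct
Ly6c1: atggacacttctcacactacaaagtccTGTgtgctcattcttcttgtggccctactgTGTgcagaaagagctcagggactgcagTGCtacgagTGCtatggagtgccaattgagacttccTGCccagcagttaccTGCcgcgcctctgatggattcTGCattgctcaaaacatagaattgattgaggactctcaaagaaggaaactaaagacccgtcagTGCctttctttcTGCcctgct
Ly6c2: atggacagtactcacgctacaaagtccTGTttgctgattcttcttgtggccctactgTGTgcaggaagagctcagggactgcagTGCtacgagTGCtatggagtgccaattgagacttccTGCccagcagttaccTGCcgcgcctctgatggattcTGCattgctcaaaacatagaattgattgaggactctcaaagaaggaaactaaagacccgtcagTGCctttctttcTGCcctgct
Ly6d: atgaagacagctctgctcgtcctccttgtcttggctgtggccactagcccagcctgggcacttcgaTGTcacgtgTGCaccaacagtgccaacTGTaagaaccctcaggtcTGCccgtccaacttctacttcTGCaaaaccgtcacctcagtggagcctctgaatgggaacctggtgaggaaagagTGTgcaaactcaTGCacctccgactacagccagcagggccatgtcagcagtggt
In this window Ly6c1 and Ly6c2 differed at 6 positions, Ly6a and Ly6c1 at 41, and Ly6a and Ly6c2 at 43, and all 9 cysteine codons of Ly6a stood at the same positions in Ly6c1 and Ly6c2. The longest complete coding sequence had 405 bases for Ly6a, 444 for Ly6c1 and 396 for Ly6c2. Aligned over these, Ly6c1 and Ly6c2 shared 365 of 389 bases (93.8%), Ly6a and Ly6c2 83.6%, and Ly6a and Ly6c1 78.1%. Of all 50-base stretches of the transcripts of Ly6c1, 32.8% also occurred in another gene, mostly Ly6c2 or Ly6a, against 19.0% for Ly6a and 14.5% for Ly6c2. Ly6a had 195 such stretches in common with Ly6c1 and 3 with Ly6c2. No such stretch was shared by Ly6d, Ly6e, Ly6g6c or Ly6g5b. How the authors' counting treated reads that match several genes is not given in the sources used here. The split between Ly6a, Ly6c1 and Ly6c2 is therefore uncertain. Reads of Ly6k and Ly6g6d are uncertain too, since 47.6% of the exon bases of Ly6k overlap the antisense gene Gm17189 and 19.5% of those of Ly6g6d overlap Ly6g6e on the other strand.

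Library totals ran from 17409131 to 46542177 counts. The tdT tracer stood at 133 to 307 CPM (counts scaled to a common library size) where tdT+ was the label, with 1 exception, and at 2.54 to 4.89 CPM where it was tdT-. The exception, the library labelled Sca-1neg tdT+ replicate 2, had tracer at 2.05 CPM, as tdT- cells do. Liver transcripts (15 genes, among them Alb, serum albumin) summed to between 14600 and 30500 CPM in 3 libraries (Sca-1neg tdT+ replicate 1, Sca-1neg tdT- replicate 2 and the library labelled Sca-1neg tdT+ replicate 2). The other 8 had sums of 84.9 to 276 CPM. The same 3 held 211 to 1320 CPM of Xist, transcribed from the inactive X, against at most 1.27 CPM elsewhere, although all mice were labelled male. Keratinocyte genes were high throughout (Krt5 8210 to 16200 CPM), while Cd34, which encodes a protein of the sort gate, had 320 to 1130 CPM elsewhere but 22.3 to 35.7 CPM in Sca-1+ tdT+. Where leaving out these 3 libraries gained or ended an edgeR call of a member, both values are given. In such bulk samples, fewer cells of a type and less RNA per cell cannot be told apart.

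Ly6d was the most abundant member per kilobase of annotated exon in all 4 groups. That length merges the exons of all transcript forms (744 bases for Ly6d, 3784 for Ly6e). In CPM without this scaling, Ly6e lay above Ly6d in both tdT- groups (132 against 66.3 in Sca-1neg, 627 against 422 in Sca-1+). On the scale of mean CPM per kilobase of exon, Ly6d stood at 89.1 in Sca-1neg tdT-, 367 in Sca-1neg tdT+, 567 in Sca-1+ tdT- and 1370 in Sca-1+ tdT+ libraries. On that scale Ly6a went from 3.07 in Sca-1neg tdT-, below Ly6e (34.8) and Ly6g6c (21.6), to 167 in Sca-1+ tdT+, above Ly6e (82.0) and Ly6g6c (102). In Sca-1+ tdT- libraries Ly6e (166) and Ly6a (149) lay side by side, with Ly6g6c at 98.1 and Ly6c1 at 25.1. Ly6c2, Ly6g5b, Ly6k and Ly6g6d stayed under 2 per kilobase in every group except for Ly6g5b in Sca-1+ tdT+ (7.65). Summed over the 9 members, the level was 183 to 259 CPM in Sca-1neg tdT-, 553 to 718 in Sca-1neg tdT+, 1380 to 1440 in Sca-1+ tdT- and 1360 to 2140 in Sca-1+ tdT+ libraries. Ly6d made up 56.6% to 62.1% of that sum in Sca-1+ tdT+ and 27.1% to 32.9% in Sca-1+ tdT- libraries. The share of Ly6e was 38.3% and 50.5% in the Sca-1+ tdT- libraries. In Sca-1neg tdT- libraries Ly6e made up 46.7% to 70.8% and Ly6d 20.3% to 36.5%.

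**Figure D1:**
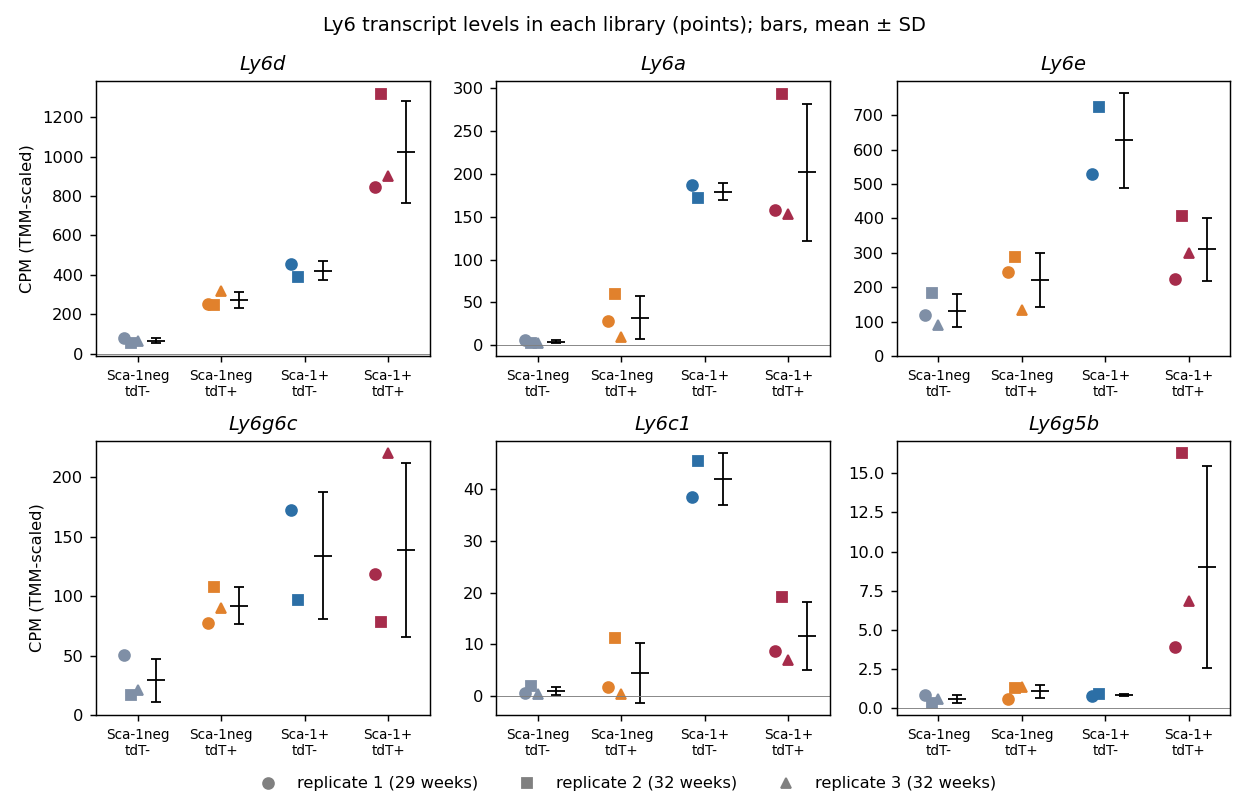
CPM (TMM-scaled, linear axes) of 6 Ly6 genes in each of the 11 libraries (points, shaped by replicate), with the mean ± SD of each sorted group (black bars). Ly6d is lowest in Sca-1neg tdT- (52.4 to 79.7 CPM) and highest in Sca-1+ tdT+ libraries (847 to 1320 CPM), Ly6c1 and Ly6e are highest in Sca-1+ tdT-, and Ly6g5b is above 1.32 CPM in the Sca-1+ tdT+ libraries alone.

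Ly6d rose with tdT in both Sca-1 fractions and with Sca-1 in both tdT states, and it is the member called in all 4 comparisons of sorted groups. In Sca-1neg tdT- libraries Ly6d was 79.7, 52.4 and 66.8 CPM (66.3 ± 13.6, SD, n = 3). Among Sca-1neg tdT+ libraries it was 251 CPM (replicate 1), 318 CPM (replicate 3) and 249 CPM (the library labelled Sca-1neg tdT+ replicate 2), a mean of 273 ± 39.4 (n = 3). The 3 labelled tdT+ libraries lay close together and above every tdT- library, including the library with tracer at the tdT- level. In Sca-1+ cells Ly6d was 456 and 389 CPM without tdT (422 ± 47.3, n = 2) and 847, 1320 and 900 CPM with it (1022 ± 258, n = 3). The 4 groups did not overlap, and their order was Sca-1neg tdT-, Sca-1neg tdT+, Sca-1+ tdT-, Sca-1+ tdT+.

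The log2 fold change of Ly6d with tdT was 2.04 ± 0.22 (SE) in Sca-1neg cells (adjusted p = 0.0183, edgeR's quasi-likelihood test with Benjamini-Hochberg adjustment over all genes tested, as for every adjusted p below unless another tool is named). Ly6d was the only member of the 8 tested that passed in this comparison, where 0.0640% of all genes tested passed. The call was lost leaving out the library labelled Sca-1neg tdT+ replicate 2 (2.10, edgeR adjusted p = 0.0506), without Sca-1neg tdT- replicate 3 (2.05, 0.138) or without Sca-1+ tdT+ replicate 3 (2.04, 0.0539), while the size moved by less than its SE. It was kept without the 3 libraries with liver transcripts (2.12, edgeR adjusted p = 0.0227). In Sca-1+ cells the log2 fold change of Ly6d with tdT was 1.28 ± 0.25 (edgeR adjusted p = 0.0224), and 2 of the 8 members tested passed there, against 2.74% of all genes. That call was lost without Sca-1+ tdT+ replicate 2 (0.99, adjusted p = 0.0613) or without Sca-1+ tdT- replicate 1 (1.39, 0.0928) or 2 (1.12, 0.311), each time by edgeR. The last 2 fits leave 1 Sca-1+ tdT- library, whose spread is taken from the other groups.

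Between Sca-1 fractions, Ly6d differed by a log2 fold change of 2.67 ± 0.24 in tdT- cells (edgeR adjusted p = 0.00116) and 1.91 ± 0.22 in tdT+ cells (0.000464). Of the 8 members tested, 4 passed in tdT- cells and 3 in tdT+ cells, all higher in Sca-1+, against 5.74% and 12.7% of all genes. Both counts include Ly6a, the gene of the sorted protein, whose call restates the sort. In tdT+ cells Ly6d stayed past the threshold in all 22 alternatives, from 1.66 to 2.03 and with an adjusted p of at most 0.028. In tdT- cells its call was lost in the 32-week libraries alone (2.70, edgeR adjusted p = 0.0638), where Sca-1+ tdT- keeps 1 library. The 29-week libraries, 1 in each group, allow no test of their own. In the 32-week libraries alone the fold changes of Ly6d with tdT were 2.24 in Sca-1neg and 1.51 in Sca-1+ cells (edgeR adjusted p = 0.17 and 0.265).

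Genes of differentiating epidermis had group sums in the order of Ly6d, but with overlap and not gene by gene. Summed over 15 such genes, led by the keratins Krt10 and Krt1, the level was 2060 to 3330 CPM in Sca-1neg tdT-, 3960 to 6180 in Sca-1neg tdT+, 4520 to 9190 in Sca-1+ tdT- and 9030 to 12200 in Sca-1+ tdT+ libraries, with none of the 15 at 0. The median log2 fold change of the 15 was 1.15 with tdT in Sca-1neg cells and -0.11 with tdT in Sca-1+ cells, and 2.53 and 0.52 with Sca-1 in tdT- and tdT+ cells. Of these 15 genes, none passed by edgeR with tdT in Sca-1neg cells (7 at an unadjusted p under 0.05, 5 by DESeq2, 0 by voom) or in Sca-1+ cells (3, 1 and 1). With edgeR, 5 rose and 1 fell with Sca-1 in tdT- cells, where 5.74% of all genes passed, and 3 rose and 1 fell with Sca-1 in tdT+ cells, where 12.7% passed. The sum of 16 T cell genes had the same order of groups. It was 30.0 to 36.3, 59.3 to 101, 173 to 189 and 559 to 1410 CPM, with Ptprcap at 0 in all groups. Thy1, also on a list of dermal fibroblast genes, gave 18 to 23.8 CPM of it in Sca-1neg tdT- libraries. Of 15 T cell genes tested, edgeR called 4 higher with tdT in Sca-1neg cells (10 by DESeq2, 0 by voom) and 7 in Sca-1+ cells. With Sca-1 it called 11 higher in tdT- and 13 in tdT+ cells, and 0 lower in any comparison. Their median log2 fold changes were 2.97, 2.95, 3.39 and 3.5 in that order. Within Sca-1+ tdT+, replicate 2 had the highest Ly6d, the highest T cell sum and the lowest sum of differentiating epidermis. The part of either marker list in the Ly6d result was not tested.

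**Figure D2:**
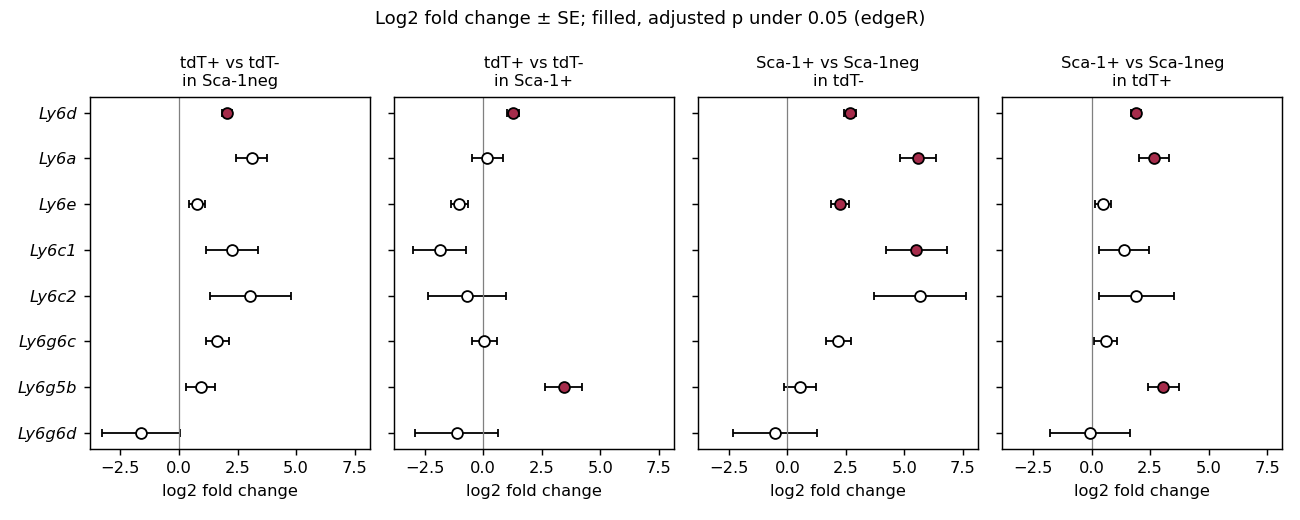
Log2 fold change ± SE of the 8 members tested in each of 4 comparisons between sorted groups, with a positive value meaning higher in tdT+ or in Sca-1+ cells. Filled points passed at an adjusted p under 0.05 (edgeR): Ly6d in all 4 panels, Ly6g5b in 2, Ly6a in both Sca-1 comparisons, and Ly6c1 and Ly6e in tdT- cells.

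Ly6a, the gene of the sorted protein, is the check on the Sca-1 gate, so its difference between gates restates the sort. Among tdT- cells its transcript was 5.74, 2.46 and 2.90 CPM on the Sca-1neg side and 187 and 172 CPM on the Sca-1+ side (log2 fold change 5.59 ± 0.76, edgeR adjusted p = 0.00741). Among tdT+ cells it was 27.6 CPM (replicate 1), 9.64 CPM (replicate 3) and 59.2 CPM (the library labelled Sca-1neg tdT+ replicate 2) on the Sca-1neg side and 158, 294 and 153 CPM on the Sca-1+ side (2.65 ± 0.64, 0.0311). Every Sca-1+ library lay above every Sca-1neg library. The lowest Sca-1+ value was 153 CPM and the highest Sca-1neg value 59.2 CPM.

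Ly6a did not follow the gate alone, since its level within Sca-1neg cells spread widely with the library. All 3 libraries labelled Sca-1neg tdT+ (32.2 ± 25.1 CPM, SD, n = 3) lay above all 3 Sca-1neg tdT- libraries (3.70 ± 1.78, n = 3), with a log2 fold change of 3.11 ± 0.66 that did not pass over all genes (edgeR adjusted p = 0.207). DESeq2's Wald test and limma's voom called it (3.21, adjusted p = 4.91e-07, and 3.12, adjusted p = 0.0448). Without the 3 libraries with liver transcripts the fold change was 1.15 (edgeR adjusted p = 0.47), and leaving out the library labelled Sca-1neg tdT+ replicate 2 alone it was 2.33 (0.322). In Sca-1+ cells Ly6a differed little with tdT (179 ± 10.02 CPM, n = 2, in tdT- and 202 ± 80.1 CPM, n = 3, in tdT+; 0.17 ± 0.67, edgeR adjusted p = 0.965), and the sign turned under voom (-0.02) and without Sca-1+ tdT+ replicate 2 (-0.27).

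The Ly6a difference between Sca-1 gates in tdT+ cells rested on the libraries used. Its edgeR call was lost in 10 of 22 alternatives, among them leaving out Sca-1neg tdT+ replicate 1 (2.55, adjusted p = 0.103), Sca-1+ tdT+ replicate 1 (2.80, 0.0526), 2 (2.24, 0.0877) or 3 (2.81, 0.0551), or Sca-1+ tdT- replicate 1 (2.64, 0.0668) or 2 (2.65, 0.0684). It was larger, at 4.36 (edgeR adjusted p = 0.00139), without the 3 libraries with liver transcripts, and 3.43 (0.00991) with only the library labelled Sca-1neg tdT+ replicate 2 left out. In tdT- cells the call was lost without Sca-1+ tdT- replicate 1 (5.52, edgeR adjusted p = 0.0592).

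Ly6c1 and Ly6e had another order than Ly6d: both were highest in Sca-1+ tdT- cells. Ly6c1 was 38.5 and 45.6 CPM there (42.0 ± 5.02, SD, n = 2) and 8.66, 19.1 and 6.97 CPM in their tdT+ counterparts. On the Sca-1neg side it was 0.579, 1.85 and 0.342 CPM without tdT, and with tdT 1.77 CPM (replicate 1), 0.386 CPM (replicate 3) and 11.1 CPM (the library labelled Sca-1neg tdT+ replicate 2). Both Sca-1+ tdT- libraries lay above the other 9, and the library labelled Sca-1neg tdT+ replicate 2 lay within the range of Sca-1+ tdT+.

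In tdT- cells Ly6c1 differed between Sca-1 fractions by a log2 fold change of 5.51 ± 1.29 (edgeR adjusted p = 0.0450), close to the threshold. The size ran from 5.11 to 6.53 over 21 alternatives and the call was lost in 13 of them. Those included every fit that left out 1 library except the fits without Sca-1neg tdT+ replicate 3 and leaving out the library labelled Sca-1neg tdT+ replicate 2, with an edgeR adjusted p from 0.0526 without Sca-1neg tdT+ replicate 1 to 0.193 without Sca-1+ tdT- replicate 1. It was 6.53 without the 3 libraries with liver transcripts (edgeR adjusted p = 9.04e-05). In the same fit Ly6c1 fell with tdT in Sca-1+ cells by 1.93 on the log2 scale (edgeR adjusted p = 0.0165), a difference that did not pass with all libraries (-1.86 ± 1.14, 0.537). That fit also gave a call with Sca-1 in tdT+ cells (4.87, edgeR adjusted p = 0.00395), where the value with all libraries was 1.39 (0.418). With tdT in Sca-1neg cells the log2 fold change of Ly6c1 turned from 2.26 (edgeR adjusted p = 0.64) to -0.26 (0.943) without them.

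Ly6e ranged less widely. Among tdT- cells it was 120, 183 and 91.1 CPM on the Sca-1neg side (132 ± 47.2, SD, n = 3) and 530 and 725 CPM on the Sca-1+ side (627 ± 139, n = 2). Among tdT+ cells it was 224, 406 and 300 CPM on the Sca-1+ side (310 ± 91.6, n = 3) and, on the Sca-1neg side, 243 CPM (replicate 1), 133 CPM (replicate 3) and 287 CPM (the library labelled Sca-1neg tdT+ replicate 2). The Sca-1+ tdT- libraries lay above all others, and the other 3 groups overlapped with at least 1 neighbour. Between Sca-1 fractions Ly6e rose in tdT- cells by 2.25 ± 0.38 on the log2 scale (edgeR adjusted p = 0.00935), a call lost without Sca-1+ tdT- replicate 1 (2.45, 0.0513) and in the 32-week libraries alone (2.40, 0.295). With tdT in Sca-1+ cells it was -1.02 (edgeR adjusted p = 0.227), and it passed by voom (-1.15, adjusted p = 0.0453) and in edgeR without the 3 libraries with liver transcripts (-1.08, 0.0308).

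Endothelial genes, and less steeply the sum of a list for Langerhans cells, were high in the same 2 Sca-1+ tdT- libraries as Ly6c1 and Ly6e. A list of 20 such genes, with Pecam1 (CD31) at 688 and 728 CPM and Cdh5 (VE-cadherin) at 364 and 421 CPM, summed to 6990 and 7590 CPM there. The endothelial sum had a range of 69.9 to 277 CPM for Sca-1neg tdT- and of 103 to 225 CPM for Sca-1+ tdT+. For Sca-1neg tdT+ it was 228 CPM (replicate 1), 17.4 CPM (replicate 3) and 1660 CPM (the library labelled replicate 2), and no gene of the list was at 0 in all libraries of a group. A list of 8 genes of Langerhans cells, the antigen-presenting cells of the epidermis, had sums of 465 to 743 CPM in 9 libraries and of 907 and 1060 CPM for the Sca-1+ tdT- pair. Epcam, 1 of the 8, alone had group means of 382 CPM in Sca-1neg tdT+, 353 in Sca-1neg tdT- and 226 in Sca-1+ tdT+. With Sca-1 in tdT- cells the median log2 fold change of the 8 was 3.42. By edgeR 3 were called higher, H2-Aa, H2-Ab1 and Cd74, all genes of class II antigen presentation. The 20 endothelial genes had a median of 5.23 and 1 edgeR call (19 at an unadjusted p under 0.05, 8 by DESeq2, 19 by voom). A list of 14 macrophage and monocyte genes had a median of 3.40 and 1 edgeR call there. Across the 3 labelled Sca-1neg tdT+ libraries, Ly6a, Ly6c1 and Ly6e all had the order of the endothelial sum and of the sum of 14 macrophage and monocyte genes (228, 498 and 12.5 CPM for replicates 1, 2 and 3 as labelled), with the library labelled replicate 2 highest and replicate 3 lowest. The sum of 15 differentiating epidermis genes had that order too (4060, 6180 and 3960 CPM), as did Xist (418, 1320 and 1.27 CPM). Among the Sca-1+ tdT+ libraries Ly6a stood at 153 to 294 CPM with an endothelial sum of at most 225 CPM. The part of these lists in the results for Ly6a, Ly6c1 and Ly6e was not tested.

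**Figure D3:**
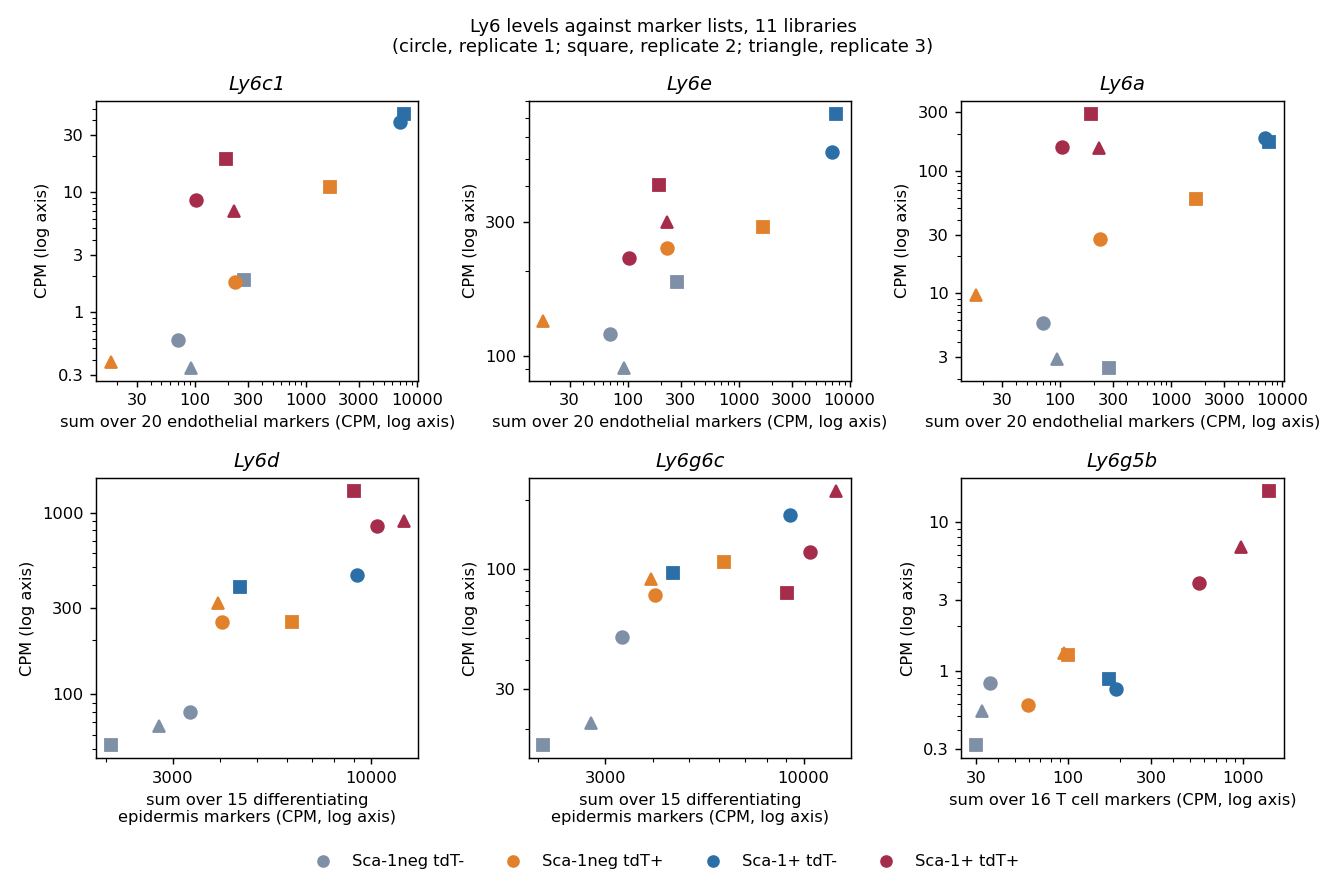
Level of 6 Ly6 genes against the summed level of a marker list in the 11 libraries, both in CPM on log axes (colour, sorted group; shape, replicate). The Sca-1+ tdT- libraries stand at the right in the endothelial panels (6990 and 7590 CPM), and the Sca-1+ tdT+ libraries stand at the upper right for Ly6g5b against T cell genes (559 to 1410 CPM).

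Ly6c2 was near the limit of detection. It had 0 counts in Sca-1neg tdT+ replicates 1 and 3 and in Sca-1neg tdT- replicate 3, which allows up to 0.136, 0.165 and 0.0731 CPM (3 counts, counting error only). It was 0.0827 and 0.132 CPM in the other Sca-1neg tdT- libraries and, with 35 counts, 1.87 CPM for the library labelled Sca-1neg tdT+ replicate 2. On the Sca-1+ side it was 3.04, 2.67 and 1.34 CPM with tdT and 0.886 and 6.74 CPM without. All 5 Sca-1+ libraries lay above all Sca-1neg tdT- libraries, but Ly6c2 passed in none of the 4 comparisons (edgeR). Between Sca-1 fractions in tdT- cells its adjusted p was 0.127 by edgeR, and it passed there by DESeq2 (adjusted p = 0.0132), voom (0.0301) and edgeR without the 3 libraries with liver transcripts (0.0141). The sum of 14 macrophage and monocyte genes was 142 and 1020 CPM in Sca-1+ tdT- replicates 1 and 2, in the order of Ly6c2. In Sca-1+ tdT+ it was 79.9, 259 and 208 CPM, lowest where Ly6c2 was highest. On the Sca-1neg side, the library with the highest sum in each group also had the highest Ly6c2. The part of this list in the Ly6c2 result was not tested.

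Of the members on chromosome 17, Ly6g6c was the abundant one. Among tdT- cells it was 50.4, 16.97 and 21.2 CPM on the Sca-1neg side (29.5 ± 18.2, SD, n = 3) and 172 and 96.4 CPM on the Sca-1+ side (134 ± 53.4, n = 2). Among tdT+ cells it was 119, 78.5 and 220 CPM on the Sca-1+ side (139 ± 72.9, n = 3) and, on the Sca-1neg side, 77.2 CPM (replicate 1), 90.3 CPM (replicate 3) and 108 CPM (the library labelled Sca-1neg tdT+ replicate 2). The Sca-1neg tdT- libraries lay below all 8 others, which overlapped among themselves. Between Sca-1 fractions in tdT- cells its log2 fold change was 2.18 ± 0.54, at the edge of the threshold (edgeR adjusted p = 0.0506). It passed there by DESeq2 (2.27, adjusted p = 7.37e-05), by voom (1.91, 0.0105) and in edgeR with DESeq2 size factors (2.27, 0.0424) or a filter of 10 CPM in 2 libraries (2.23, 0.0289). With tdT in Sca-1neg cells it was 1.64 ± 0.50 (edgeR adjusted p = 0.407) and passed by DESeq2 (0.00681). Within 3 of the 4 groups its order over libraries was that of the summed differentiating epidermis genes. Sca-1neg tdT+ was the exception, where only the highest library was shared.

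Ly6g5b was a low-level transcript that was highest in Sca-1+ tdT+ cells. It was 3.89, 16.3 and 6.81 CPM (146, 287 and 132 counts) there (9.0 ± 6.49, SD, n = 3) and 0.759 and 0.880 CPM in the Sca-1+ tdT- group. On the Sca-1neg side it was 0.827, 0.317 and 0.537 CPM without tdT, and with tdT 0.589 CPM (replicate 1), 1.32 CPM (replicate 3) and 1.29 CPM (the library labelled Sca-1neg tdT+ replicate 2). The 3 Sca-1+ tdT+ libraries lay above all 8 others, which overlapped, and they differed widely among themselves.

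Ly6g5b rose with tdT in Sca-1+ cells by 3.45 ± 0.79 on the log2 scale (edgeR adjusted p = 0.0459) and with Sca-1 in tdT+ cells by 3.07 ± 0.66 (0.0123). The first call was lost in 12 of 21 alternatives. Among fits that left out 1 library it was lost leaving out the library labelled Sca-1neg tdT+ replicate 2 (adjusted p = 0.0555), Sca-1neg tdT- replicate 1 (0.0636) or 3 (0.0742), Sca-1+ tdT+ replicate 2 (2.65, 0.137) or 3 (0.083), or Sca-1+ tdT- replicate 1 (0.273) or 2 (0.407), all by edgeR. Over those and the other alternatives its size ran from 2.65 to 3.81. The second call was lost in 4 of 21, among them without Sca-1+ tdT+ replicate 2 (2.30, edgeR adjusted p = 0.0553) and without the 3 libraries with liver transcripts (2.74, 0.0909). T cell genes had the same order over the Sca-1+ tdT+ libraries, with sums of 559, 1410 and 980 CPM. Cd3e, a chain of the T cell receptor complex, was at 47.1, 117 and 95.5 CPM. That order also held for the sum of 14 macrophage and monocyte genes (79.9, 259 and 208 CPM). The sum of 10 dermal fibroblast genes, Thy1 among them, had it too (280, 820 and 341 CPM). The part of these lists in the Ly6g5b result was not tested. Csnk2b, the next protein-coding gene on the chromosome and chosen after its values were seen, stayed between 93.5 and 112 CPM in the group means.

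Ly6k and Ly6g6d were barely counted. Ly6k had at most 6 counts in a library and 0 in 6 of the 11, where 0 counts allow up to 0.0619 to 0.165 CPM. Ly6g6d had 44 counts in Sca-1neg tdT- replicate 2, 1 of the libraries with liver transcripts, and 0 to 14 counts in the others, and passed in no comparison by edgeR or voom, while DESeq2 gave it an adjusted p only with Sca-1 in tdT+ cells (0.971). Its partner on the other strand, Ly6g6e, stood at group means of 1.44 CPM in Sca-1neg tdT-, 7.39 in Sca-1neg tdT+, 8.47 in Sca-1+ tdT- and 12.7 in Sca-1+ tdT+. Ly6g6e rose with Sca-1 in tdT- cells by 2.55 ± 0.57 (edgeR adjusted p = 0.0276).

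Over the 8 members tested, the median log2 fold change was 1.84 with tdT in Sca-1neg cells (all genes -0.03), -0.32 with tdT in Sca-1+ cells (all genes 0.04), 2.46 with Sca-1 in tdT- cells (all genes -0.13) and 1.65 with Sca-1 in tdT+ cells (all genes -0.07). With all libraries in 1 fit, edgeR called no member lower in any of these. It called Ly6c1 lower with tdT in Sca-1+ cells when only those groups were fitted (-1.89, adjusted p = 0.0374), beside the calls of Ly6c1 and Ly6e without the 3 libraries with liver transcripts given above. With tdT in Sca-1+ cells voom called Ly6c1 and Ly6e lower, where DESeq2 gave Ly6c1 no adjusted p and Ly6e one of 0.0743. With tdT in Sca-1neg cells 3 members had libraries wholly above the other group and none wholly below, against 5.10% and 10.9% of all genes. With tdT in Sca-1+ cells the counts were 2 above (Ly6d and Ly6g5b) and 2 below (Ly6c1 and Ly6e), against 15.8% and 17.2%. With Sca-1, 6 members were wholly above in tdT- cells and 3 in tdT+ cells, against 19.9% and 15.4% of all genes. None was wholly below in either, against 26.4% and 15% of all genes. The medians and counts are over 8 members that passed a filter on low counts and are descriptions. Those with Sca-1 include Ly6a, whose difference between gates restates the sort.

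Whether the tdT difference itself differed between Sca-1 fractions was tested directly. None of the 8 members passed that test by edgeR, where 0.483% of all genes did. An unadjusted edgeR p under 0.05 was reached by 5 members, and by 2476 of all 20307 genes tested. DESeq2 called 2 members (Ly6a and Ly6e) and 841 of all genes. Voom called 3 members (these and Ly6c1) and 690 of all genes. For Ly6a the tdT effect was lower in Sca-1+ than in Sca-1neg cells by a log2 value of -2.95 ± 0.91 (edgeR adjusted p = 0.245). It passed by DESeq2 (-3.07, adjusted p = 0.00343), voom (-3.15, 0.0229) and, in edgeR, with Sca-1neg tdT+ replicate 3 left out (-3.38, 0.0433). It was -1.05 (0.536) without the 3 libraries with liver transcripts. Counts were simulated for the same libraries with 100 genes changed 2-fold, 100 changed 4-fold and every other gene at the same mean in all groups. On them the test recovered 5% of genes with a 4-fold difference of effects, against 41% to 53% of genes changed 4-fold between 2 groups. The adjustment is stricter where so few genes change, so these rates need not hold for the real comparisons.

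**Figure D4:**
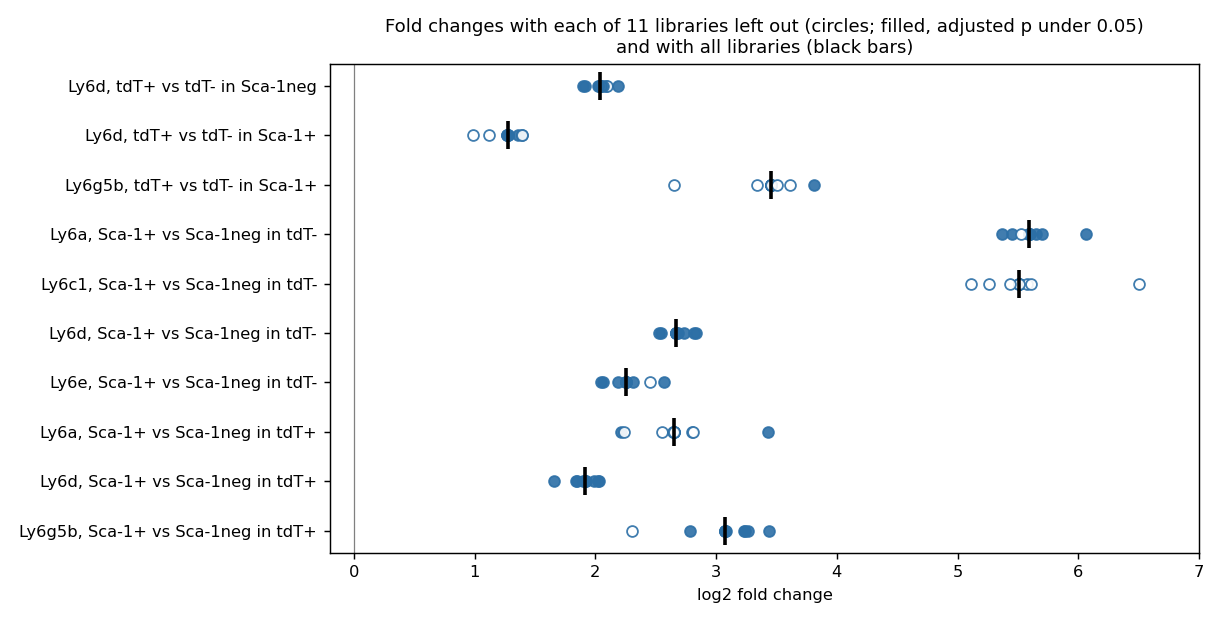
Log2 fold change of the 10 called pairs of member and comparison with all libraries (black bars) and with each of the 11 libraries left out in turn (circles, filled where the edgeR adjusted p stayed under 0.05). Ly6d between Sca-1 fractions keeps filled circles throughout, while most circles of Ly6c1 and of Ly6g5b with tdT are open.

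Other genes of the family and its pathway gave few calls. The lists were fixed with earlier results of these data known. Of 10 other Ly6 symbols 8 were in the annotation and 2 were tested: Ly6g6e, above, and Ly6h, which was lower in Sca-1+ tdT+ (2, 0 and 1 counts) than in Sca-1neg tdT+ libraries (5, 23 and 34 counts; edgeR adjusted p = 0.025). Of 20 relatives with an LU domain, 14 were tested, and none passed with tdT in Sca-1neg cells by edgeR, DESeq2 or voom (1 at an unadjusted p under 0.05). By edgeR, Lynx1, a modulator of nicotinic acetylcholine receptors and the neighbour of Ly6d on the chromosome, fell with tdT in Sca-1+ cells by 1.28 ± 0.29 on the log2 scale (edgeR adjusted p = 0.041) and rose with Sca-1 in tdT- cells by 1.17 ± 0.29 (0.038). Plaur, the urokinase receptor, rose with Sca-1 in tdT- cells from 8.32 to 48.0 CPM (2.53 ± 0.55, edgeR adjusted p = 0.0253).

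In tdT+ cells, Lypd6b and Lypd3, a surface protein of keratinocytes, rose with Sca-1 by 0.85 ± 0.19 and 0.83 ± 0.23 on the log2 scale (edgeR adjusted p = 0.0157 and 0.0382). Gpihbp1, which carries lipoprotein lipase on capillary endothelium, had 0 counts in all 3 Sca-1+ tdT+ libraries (up to 0.0799, 0.170 and 0.155 CPM) and a mean of 2.12 CPM in Sca-1neg tdT+ (edgeR adjusted p = 0.029). Of the 14 relatives tested, edgeR thus called 1 with tdT in Sca-1+ cells, 2 with Sca-1 in tdT- cells and 3 with Sca-1 in tdT+ cells, against 2.74%, 5.74% and 12.7% of all genes. The machinery that builds and attaches the GPI anchor gave few calls by edgeR. Of 24 genes tested, none passed by edgeR with tdT in Sca-1neg cells (1 at an unadjusted p under 0.05, 1 by DESeq2, 0 by voom) or in Sca-1+ cells (2, 1 and 0). With Sca-1, Pgap1 rose in tdT- cells (0.94 ± 0.20, edgeR adjusted p = 0.0202), and Pigm (0.72 ± 0.17, 0.0207) and Pigf (1.20 ± 0.33, 0.0362) rose in tdT+ cells. That is 1 of 24 and 2 of 24, against 5.74% and 12.7% of all genes. The list's medians were -0.08, 0.20, -0.03 and 0.15, in the order of the comparisons above.

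Interferon-stimulated genes, a class that includes Ly6e, gave few calls by edgeR. Of 25 tested, none passed by edgeR with tdT in Sca-1neg cells (median 0.31, 1 at an unadjusted p under 0.05, 0 by DESeq2 and voom) or in Sca-1+ cells (median -0.50, 2 at an unadjusted p under 0.05, 1 by each other tool). With Sca-1 in tdT- cells the median was 1.61 and 1 gene passed, the GTPase Gbp2 (15.5 to 88.9 CPM, 2.52 ± 0.57, edgeR adjusted p = 0.0368), while DESeq2 called 9 and voom 13. With Sca-1 in tdT+ cells the median was 0.42 and 3 passed, among them Ifi27 (0.66 ± 0.17, edgeR adjusted p = 0.0257) and Oas1a (2.66 ± 0.72, 0.0341). These edgeR counts, 1 of 25 and 3 of 25, compare with 5.74% and 12.7% of all genes. The 9 by DESeq2 and 13 by voom with Sca-1 in tdT- cells compare with 2950 and 4260 of all 20307 genes.

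The genes with the pattern most like each abundant member were found among 11307 genes as those with the smallest root mean square difference in centred log2(CPM + 1) over the 11 libraries. For Ly6d, with a spread of its own of 1.49 on that scale, they were Ehf (0.33) and Grhl3 (0.40), both epithelial transcription factors, and Cd163l1 (0.41). For Ly6a (own spread 2.34) they were Neurl3 (0.54), Wnt3 (0.62) and Ctla2a (0.62). For Ly6c1 (own spread 1.81) they were Arap3 (0.36), Slfn2 (0.42) and Vim (0.47), the intermediate filament vimentin of mesenchymal and endothelial cells. For Ly6e (own spread 0.87) they were Ugcg (0.23), Rin3 (0.27) and Spsb1 (0.30). The libraries that carry each pattern differ in the marker sums given above, and likeness here is a description over 11 libraries in 4 groups.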

How the data were processed

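RNA of 11 libraries in 4 sorted groups was sequenced after TruSeq v2 preparation. The deposited files hold raw counts per Ensembl gene (55536 genes and 1 further entry without an Ensembl gene identifier, read as the tdT tracer from its levels and left out of the tests). Per the submitters' processing notes the authors used STAR, featureCounts, FastQC, bcl2fastq 2.20.0.422 and DESeq2 1.18.1 on mm10. The annotation release, strand setting and treatment of multi-mapping reads were not given in the sources used here.

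Symbols and sequences came from GENCODE M21 (55450 genes matched, 86 without a symbol). Counts were fitted in R 4.3.3 with edgeR 4.0.16: low-count filter by group, TMM, and a robust quasi-likelihood fit of the 4 group means to all 11 libraries (7 residual degrees of freedom), with Benjamini-Hochberg adjustment over 20307 genes and a threshold of 0.05. The SE is approximate, the absolute log2 fold change over the square root of F. CPM are TMM-scaled, except for the tracer. Totals of 17409131 to 46542177 counts set the precision of low genes. On simulated counts with 100 genes changed 2-fold and 100 changed 4-fold, 0% to 8% and 41% to 53% were recovered between groups.

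The members and lists were chosen with earlier results of these data known. All 9 members are named with their levels, with fold changes where they passed and for Ly6a throughout. Of each list, up to 4 genes past the threshold with the lowest p are named. The alternatives were DESeq2 1.42.0, voom of limma 3.58.1 with quality weights, other size factors, other filters, a replicate block, age as a factor, 32-week libraries alone, only the groups compared, no liver-transcript libraries, and each library left out in turn. Libraries were not copies: the chi-square per degree of freedom was at least 45.5 for each of 55 pairs. The values of 1 gene of the interferon-stimulated list are not reported here.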

Additional observations from a re-analysis of the deposited data

How the results depend on the processing

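Counts of members past the threshold moved with the setting as follows. With tdT in Sca-1neg cells the count was 1, and it was 3 by DESeq2, 2 by voom, 0 in the 32-week libraries alone and 0 with only the groups compared, and it ran from 0 to 1 with each library left out. With tdT in Sca-1+ cells it was 2, and it was 1 with library size alone, 1 with a filter of 10 CPM in 2 libraries (Ly6g5b is not tested there), 1 with age as a factor, 0 in the 32-week libraries alone and 4 without the 3 libraries with liver transcripts, and it ran from 0 to 2 with each library left out. Of the 3 fits with 0, 1 is without Sca-1+ tdT+ replicate 2 and the others are without a Sca-1+ tdT- library. With Sca-1 in tdT- cells it was 4, and it was 0 in the 32-week libraries alone and ran from 1 (without Sca-1+ tdT- replicate 1) to 5 with each library left out. With Sca-1 in tdT+ cells it was 3, and it was 1 in the 32-week libraries alone and ran from 1 (without Sca-1+ tdT+ replicate 2) to 5 (with the library labelled Sca-1neg tdT+ replicate 2 left out). For the difference of the tdT effect it was 0, and it was 2 by DESeq2 and 3 by voom, and ran from 0 to 1 (without Sca-1neg tdT+ replicate 3). Except for the stated untested gene, the cause of these moves was not tested. In the 32-week libraries alone Sca-1+ tdT- keeps 1 library, and the part of this in the 32-week counts was not tested either. The Ly6a difference with tdT in Sca-1+ cells changed sign by voom (-0.02) and without Sca-1+ tdT+ replicate 2 (-0.27); over all fits that left out 1 library it ran from -0.27 to 0.33.

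Same-numbered libraries deviated together in some pairs and not in others. The correlation of their deviations ran from -0.385 to 0.551 and was over 0.1 in 7 of 15 pairs. Differently numbered Sca-1neg tdT+ replicate 1 and Sca-1neg tdT- replicate 2, both with liver transcripts, had 0.484. These correlations cannot decide whether same-numbered libraries belong together, and the numbers were not read as pairs. For Sca-1 in tdT- cells, a replicate block changed the SE from 1.29 to 0.73 for Ly6c1, from 0.38 to 0.25 for Ly6e and from 0.24 to 0.27 for Ly6d. With a replicate block, 1 member passed with tdT in Sca-1neg cells, 1 with tdT in Sca-1+ cells (Ly6d 1.27, edgeR adjusted p = 0.0472, while Ly6g5b, at 3.34, lost its call with 0.087), 4 and 3 with Sca-1 in tdT- and tdT+ cells, and 0 for the difference of effects.

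Over all genes, DESeq2 called 400, 1470, 2950, 4652 and 841 genes in the 5 comparisons, where edgeR called 13, 556, 1166, 2572 and 98. Voom called 166, 1161, 4260, 2391 and 690. The member counts by tool given above are to be read beside these. With only the groups compared, edgeR called 0 of 17975 genes with tdT in Sca-1neg cells. The count of 0 members there is thus the result for every gene. DESeq2 size factors moved the median of all genes most for the difference of effects, from 0.05 to -0.07. DESeq2 gave no adjusted p for Ly6c1 in any of the 5 comparisons, and the difference of effects has no fit with only the groups compared. Depth limits Ly6k, Ly6g6d and Ly6c2, and 2 Sca-1+ tdT- libraries limit each comparison that uses them.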
